A study of Mus musculus with 12 samples.

Results

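The proteasome is the protease complex that degrades proteins tagged with ubiquitin, and its genes were examined here in the amygdala of C57/BL6 mice that differed in anxiety-related behavior. The members were all protein-coding genes whose symbol starts with Psma, Psmb, Psmc, Psmd, Psme, Psmf or Psmg, with at least 10 counts in total over 11 mice. This gave 50 genes of the 47729 in the count table, among 26963 genes of any kind with that many counts, and no protein-coding gene with such a symbol fell under the minimum. By their known roles, 8 form the alpha ring, 7 the beta ring, 4 are inducible or tissue-specific beta subunits, 6 are ATPases of the base, 11 are other subunits of the base and lid, 6 are activators or inhibitors and 7 are assembly chaperones. The symbol rule also took in Psmc3ip, a meiotic recombination factor that is not a proteasome subunit.

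In each proteasome a barrel-shaped core particle, made of outer alpha rings and inner beta rings, holds the active sites, which sit on Psmb5, Psmb6 and Psmb7. Interferon and immune cells replace these with Psmb8, Psmb9 and Psmb10, giving the immunoproteasome that produces peptides for antigen presentation. The regulatory particle (base and lid) binds ubiquitinated proteins, removes the ubiquitin and unfolds the substrate with its ATPase ring. In neurons, protein turnover by the proteasome takes part in synaptic plasticity and in the formation and updating of memory.

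The study sequenced mRNA of the bilateral amygdala of 12 female, age-matched mice of 1 inbred strain, with 1 library per mouse. Before this, every mouse had been through a light/dark box (LD), an elevated plus maze (EPM) and a social interaction test with a stranger mouse (SIT). Mice 3, 7 and 12 were labelled less anxious, mice 1, 4, 8 and 11 anxious, and mice 2, 6, 9 and 10 more anxious, whereas mouse 5 had no group. Labels and behavior did not always run together. More anxious mouse 6 had the highest percent time in the light (46.6%), distance in the light (41.9%) and time in open arms (29.2%) of all mice. The authors made the groups from PC2 (a principal component) of the same expression data, so a comparison of the groups is not independent of expression, while the behavior measures are. The labels name no allele, transgene or drug in any group, and the tissue was a dissected block in which fewer cells of a type and less RNA per cell cannot be told apart.

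The 11 grouped mice had 31745630 to 45142355 estimated counts (median 36578626), and mouse 5 had 32682574. All marker genes of neurons, astrocytes, oligodendrocytes, microglia and endothelium were detected in every grouped mouse. The summed astrocyte markers ran from 870.4 to 1076 CPM (counts scaled to library size with TMM factors) in less anxious mice and from 653.3 to 826.3 CPM in more anxious mice, and the endothelial markers from 93.1 to 148 CPM and from 60.5 to 81.3 CPM. The neuron sum ran from 3257 to 3465 CPM and from 3483 to 4347 CPM, but of the 6 neuron markers 3 had fitted changes above 0 and 3 below, from -0.32 to 0.44 (log2), so these markers did not move one way. Mouse 5 had 23768 genes with a count and the others 26378 to 28196. Mouse 5 lay above the range of the other mice for 5 members and below it for 7, among them Psmb5 (42.1 CPM against 50.6 to 85.8) and Psmb3 (37.7 CPM against 45.7 to 65.3).

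The promoters of 4 beta-ring genes and of Psmb10 are given first, because the beta ring co-varied most closely of the subcomplexes below. Psmb10 moved with several of its genes, and Psmb4 had the smallest p of all members. The promoters are RefSeq windows on GRCm38.p6 from 250 bases before to 50 after a gene's start, read 5′ to 3′ along the gene. Capitals mark matches, on either strand, to TGACNNNGC (the core of the element bound by NFE2L1, the factor that raises proteasome genes when proteasomes fail), to the core of interferon-stimulated response elements (GAAA on both sides of any 2 bases) and to CCAAT (the box bound by NF-Y). Each motif was searched by itself, and overlaps between motifs were allowed.
Psmb3, chr11:97703184-97703483, + strand: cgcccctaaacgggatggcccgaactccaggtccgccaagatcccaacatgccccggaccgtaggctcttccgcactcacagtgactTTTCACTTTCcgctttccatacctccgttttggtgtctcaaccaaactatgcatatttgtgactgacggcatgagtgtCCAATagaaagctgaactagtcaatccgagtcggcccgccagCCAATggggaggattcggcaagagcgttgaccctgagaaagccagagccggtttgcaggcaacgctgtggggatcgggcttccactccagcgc
Psmb4, chr3:94886909-94887208, - strand: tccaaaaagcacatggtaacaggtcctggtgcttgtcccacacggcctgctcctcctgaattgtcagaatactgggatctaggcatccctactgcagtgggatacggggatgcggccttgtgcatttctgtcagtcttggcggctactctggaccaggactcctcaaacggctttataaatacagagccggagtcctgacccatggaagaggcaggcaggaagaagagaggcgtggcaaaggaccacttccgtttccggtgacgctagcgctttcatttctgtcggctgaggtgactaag
Psmb5, chr14:54617946-54618245, - strand: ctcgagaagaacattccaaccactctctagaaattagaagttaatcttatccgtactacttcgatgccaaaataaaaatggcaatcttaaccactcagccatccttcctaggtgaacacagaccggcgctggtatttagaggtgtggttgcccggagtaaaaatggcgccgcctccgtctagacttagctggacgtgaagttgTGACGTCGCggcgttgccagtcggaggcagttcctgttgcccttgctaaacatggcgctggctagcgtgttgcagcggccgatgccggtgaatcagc
Psmb6, chr11:70525107-70525406, + strand: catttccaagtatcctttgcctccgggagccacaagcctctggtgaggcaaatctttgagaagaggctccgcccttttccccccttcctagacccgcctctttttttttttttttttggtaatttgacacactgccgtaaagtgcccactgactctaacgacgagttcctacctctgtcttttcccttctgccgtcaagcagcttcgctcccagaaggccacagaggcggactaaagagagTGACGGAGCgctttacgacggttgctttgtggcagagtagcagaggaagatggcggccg
Psmb10, chr8:105938343-105938642, - strand: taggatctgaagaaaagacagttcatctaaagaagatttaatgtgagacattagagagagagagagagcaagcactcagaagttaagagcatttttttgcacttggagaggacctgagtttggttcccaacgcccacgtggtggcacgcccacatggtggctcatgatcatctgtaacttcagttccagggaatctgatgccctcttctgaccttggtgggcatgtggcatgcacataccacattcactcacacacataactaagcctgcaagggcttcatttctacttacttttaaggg
A TGACNNNGC match stood in the windows of Psmb5 and Psmb6, 1 in each. The Psmb3 window held 1 interferon-element and 2 CCAAT matches, and the Psmb4 and Psmb10 windows held none of these letters. Of the 50 members, 42 had a window in the table, and Psmb1, Psmb2 and Psmb7 of the beta ring had none. TGACNNNGC was found for 6 of the 42 (14.3%) and for 14% of 27025 genes, the interferon element for 5 (11.9%) against 3.99%, and CCAAT for 15 (35.7%) against 41.1%. The 5 with the interferon element were Psmb3, Psmd4, Psmd9, Psme1 and Psmg4, and none of the 4 inducible or tissue-specific beta genes held it. Among the 7 alpha-ring genes with a window, 5 held CCAAT and none held TGACNNNGC or the interferon element. A match is a description of letters and not a bound site.

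Levels were compared between genes per length, as CPM per kb of the gene's principal transcript, averaged over 11 mice. The beta ring ran from 63.2 ± 5.39 (SD, n = 11) for Psmb1 to 104 ± 9.15 CPM per kb for Psmb6, a 1.65-fold range. With the length of all merged exons in place of the principal transcript, the ring spanned 3.17-fold, from 23.3 (Psmb3) to 73.7 CPM per kb (Psmb5). The ATPases, which thread substrates into the core, ran from 32.3 ± 2.76 for Psmc6 to 102.5 ± 8.27 CPM per kb for Psmc5. The alpha ring, the gate of the core, ran from 20.7 ± 1.90 for Psma3 to 77.4 ± 14.5 CPM per kb for Psma7, apart from Psma8. Psma8, which takes the place of Psma7 in the testis, was at 0.112 ± 0.0622 CPM per kb, with 3 to 15 counts per mouse.

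The other base and lid subunits ran from 20.4 ± 1.59 CPM per kb for Psmd11 to 63.6 ± 11.9 for Psmd4, a ubiquitin receptor. The 7 assembly chaperones, which help subunits come together and then leave, lay between 7.84 ± 1.85 CPM per kb for Psmg4 and 14.3 ± 1.82 for Psmg2. Of the activators, Psme1 had 36.5 ± 3.26 CPM per kb, its partner Psme2 had 23.4 ± 6.01, the nuclear activator Psme3 had 31.2 ± 4.35 and Psme4 had 8.46 ± 1.30. Psme2b was at 0.344 ± 0.264 CPM per kb, with 0 counts in mouse 9 and at most 27 in another mouse, and as a near copy of Psme2 it can share reads with it. Within a subcomplex, neighbours in these orders often lay closer than their SDs, as for Psmb5 (73.7 ± 11.7), Psmb2 (73.8 ± 8.66) and Psmb4 (74.8 ± 16.9 CPM per kb). The median over the 50 members was 36.6 CPM per kb with the principal transcript, 54.0 with the median length of the protein-coding transcripts and 20.4 with merged exons. The orders depended on this choice: the highest activator was Psme1 with the principal transcript and Psme3 with both other lengths (119.1 and 28.2 CPM per kb). The highest alpha-ring gene was Psma7, Psma4 or Psma6, and the highest of the base and lid was Psmd4, or Psmd2 with both other lengths. The highest chaperone was Psmg2, Psmd9 or Psmd10. Psmc5 was the highest ATPase and Psmb10 the highest inducible beta subunit with all 3 lengths.

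**Figure D1:**
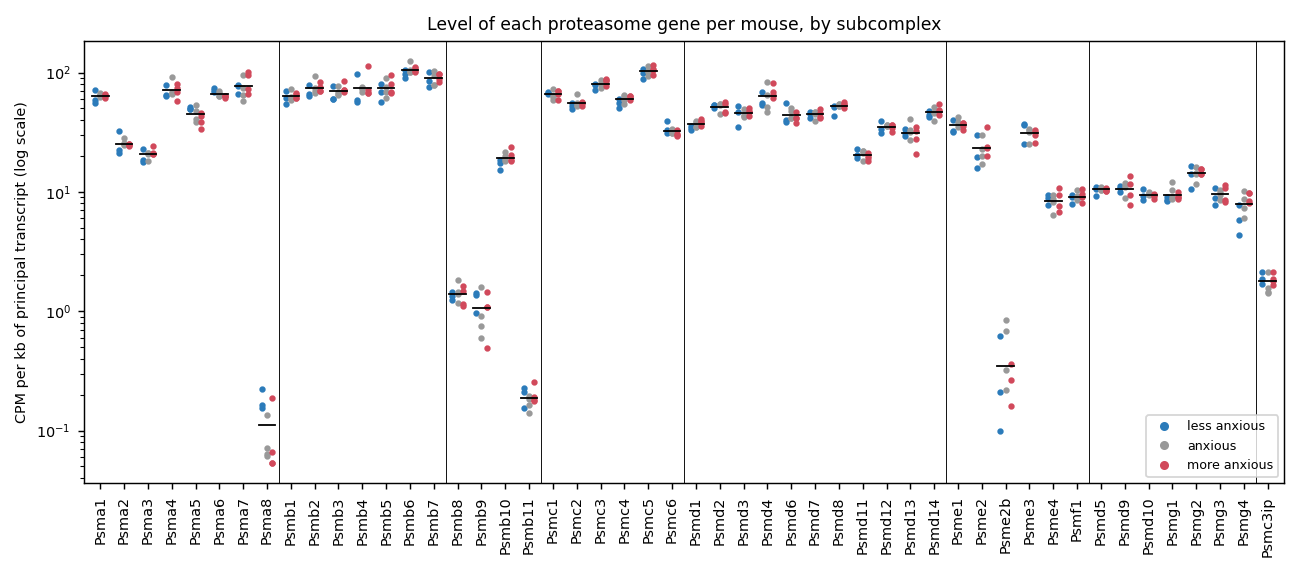
CPM per kb of principal transcript (log axis) of 50 proteasome genes in 11 mice. Points are mice, colored by group, black bars are means, and vertical lines separate, from the left, alpha ring, beta ring, inducible beta, ATPases, base and lid, activators or inhibitors, chaperones and Psmc3ip. The mouse with 0 Psme2b counts is not drawn. The inducible Psmb8 and Psmb9 lie far below the constitutive beta ring and Psmb10 in between.

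The inducible subunits were unequal in level. Psmb10, the inducible counterpart of Psmb7, had 19.1 ± 2.25 CPM per kb (n = 11), whereas Psmb8, the counterpart of Psmb5, had 1.39 ± 0.215 and Psmb9, the counterpart of Psmb6, had 1.07 ± 0.363. Psmb11, the beta subunit of thymic epithelium, was at 0.189 ± 0.0330 CPM per kb. The ratio of Psmb10 to Psmb7, per length, was 18.3% to 24.6% in the 11 mice (median 20.98%). The ratio of Psmb8 to Psmb5 was 1.42% to 2.64% (median 1.81%), and that of Psmb9 to Psmb6 was 0.436% to 1.57% (median 1.06%). With the median length of the protein-coding transcripts the medians were 2.97% and 2.70%. In every mouse the Psmb10 ratio was thus the highest of the set.

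By group, the ratio of Psmb10 to Psmb7 was 19.7 ± 1.19% in less anxious (n = 3), 22.3 ± 1.56% in anxious (n = 4) and 22.0 ± 1.76% in more anxious mice (n = 4). Less anxious mice 3, 7 and 12 had 18.33%, 20.59% and 20.11%, below all other mice. The lowest other values were 20.75% in more anxious mouse 6 and 20.82% in anxious mouse 8. This gap was not tested or set beside ratios of other genes. In the same order of groups, the ratio of Psmb8 to Psmb5 was 2.02 ± 0.472%, 2.01 ± 0.453% and 1.76 ± 0.435%, differences smaller than the spread within groups. That of Psmb9 to Psmb6 was 1.29 ± 0.199%, 0.92 ± 0.47% and 0.982 ± 0.412%. Psmb8 had 2.19, 2.04 and 2.35 CPM in less anxious mice 3, 7 and 12 and 1.81, 1.86, 2.41 and 2.65 CPM in more anxious mice 2, 6, 9 and 10. Psmb9 had 1.94, 1.84 and 1.30 CPM and 1.47, 0.659, 1.48 and 1.95 CPM in the same mice. For both genes the groups overlapped. Psmb8 rested on 62 to 106 counts per mouse and Psmb9 on 22 to 73. Psmb9 overlaps Tap1 on the opposite strand, and Psmb8 (chr17:34197721-34201454) and Psmb10 (chr8:105935735-105938444) overlap antisense genes. Since the use of strand in the counting is not given in the sources used here, reads of these partners cannot be told apart.

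Variation between mice was described for the 41 members with a mean of at least 10 CPM. Their coefficient of variation (CV) over 11 mice had a median of 9.01% (quartiles 7.50% and 13.4%), beside 11.9% for all 10354 genes at that level. Members and all genes shared this floor but were not matched for level above it. The lowest CV of a member was that of Psmd5, an assembly chaperone, at 4.98%. The highest was that of Psme2 at 25.7%, with 15.3 CPM in mouse 3 and 33.8 CPM in mouse 6. Psmb4, a beta-ring subunit without an active site, had 22.5%, the most of the constitutive core subunits with that level.

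Summed over all 50 members, the level ran from 2766 CPM in mouse 12 to 3313 CPM in mouse 8, a 1.20-fold range. The group means were 2932 ± 148 CPM in less anxious (n = 3), 3013 ± 200.2 in anxious (n = 4) and 3038 ± 147 in more anxious mice (n = 4), closer together than the SDs. The regulatory particle (base and lid with its ATPases) varied from 1449 to 1691 CPM, with a CV of 4.48%. The beta ring varied from 475 CPM in mouse 12 to 662.5 CPM in mouse 9, with a CV of 10.2%. Mouse 12, a less anxious mouse, had the lowest value for 16 of the 41 members, and mouse 8, an anxious mouse, had the highest for 11.

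**Figure D2:**
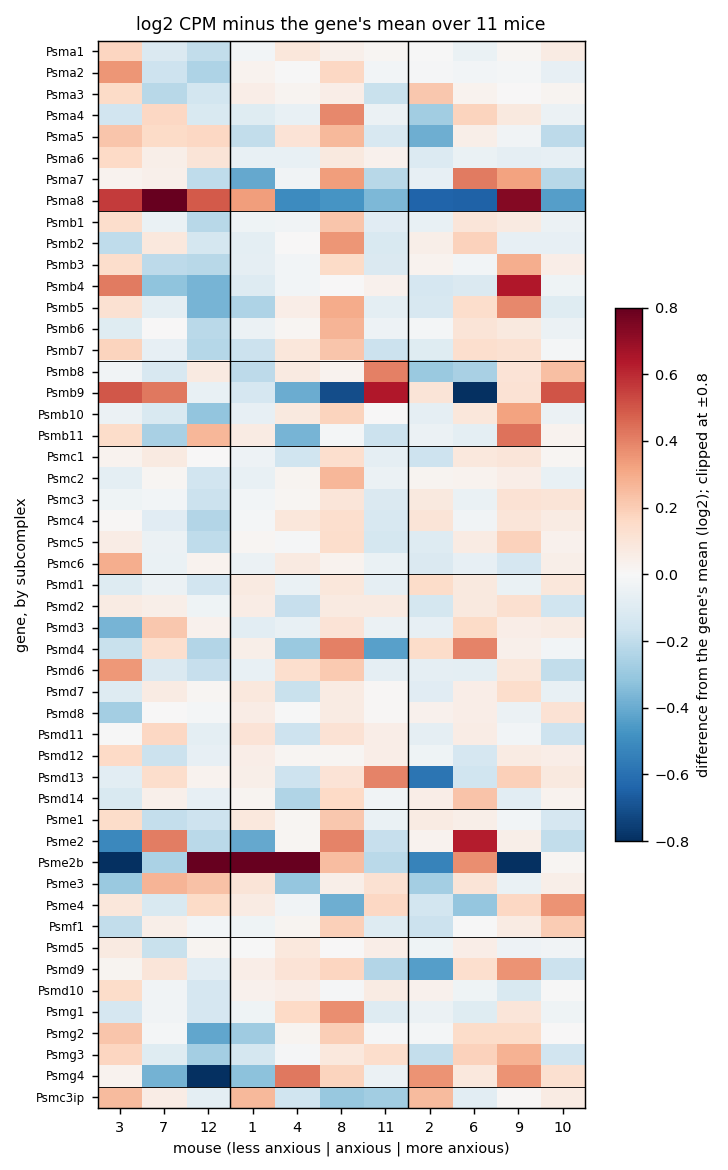
Difference of each gene's log2 CPM from its own mean over 11 mice (color, clipped at ±0.8), with mice in columns by group and genes in rows by subcomplex. Mouse 12 is low across the beta ring and mouse 8 is high for most of it, while the strongest single colors belong to genes with few counts such as Psma8, Psmb9 and Psme2b.

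The subcomplexes differed in how closely their genes moved together from mouse to mouse. The beta ring had a mean pairwise Pearson r of log2 CPM of 0.61 (21 pairs, 11 mice), the ATPases 0.33, the alpha ring 0.223, the base and lid 0.155, the chaperones 0.131 and the activators -0.0932. Over all 820 pairs of the 41 members the mean was 0.201, and 68.8% of the pairs were above 0, whereas the mean over all pairs of 10354 genes at that level was 0.012. Leaving out a mouse gave 0.514 to 0.686 for the beta ring and 0.13 to 0.235 for the 41 members. These correlations are descriptions across 11 libraries, whose scaling and cell makeup the genes share, and no p is given.

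Within the beta ring, Psmb1 and Psmb7 had r = 0.908 and Psmb5 and Psmb7 r = 0.896, whereas Psmb2 and Psmb4 had r = -0.258. Psmb3 and Psmb4 formed a close pair (r = 0.86), and Psmb2 and Psmb6 another (r = 0.859). Psmb10 moved with its constitutive relatives, with r = 0.916 to Psmb5. In less anxious mice 3, 7 and 12, Psmb5 had 71.4, 62.0 and 50.6 CPM and Psmb10 24.1, 22.9 and 20.01 CPM. In more anxious mice 2, 6, 9 and 10, Psmb5 had 60.1, 72.4, 85.8 and 61.2 CPM and Psmb10 23.7, 26.5, 31.2 and 24.1 CPM. In both groups the mouse with the most Psmb5 also had the most Psmb10.

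Of all 820 pairs, the highest r was that of Psmb6 with the ATPase Psmc2 (0.963), followed by the ATPases Psmc3 and Psmc4 (0.923) and by Psmb10 with Psmb5. Psme4, the single-chain activator also called PA200, ran against the rest, with a mean r of -0.258 to the other members and r = -0.866 to Psmb2. Psme4 was highest in mouse 10 (69.8 CPM) and lowest in mouse 8 (41.4 CPM), and Psmb2 had 60.2 and 80.5 CPM in these mice. The share of counts in ribosomal protein genes was lowest in mouse 12 (0.840%), where the beta ring was lowest too. It was highest in mice 8 and 3 (1.07% each) and 1.01% in mouse 9, which had the highest beta ring. Mouse 2 had a share of 1.01% too, with a beta-ring sum of 543.7 CPM. The part of this share in the co-variation was not tested. Along PC1, 27 of the 41 members (65.9%) rose with the score, beside 51.8% of all genes at that level, and along PC2 20 (48.8%), beside 51.4%.

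**Figure D3:**
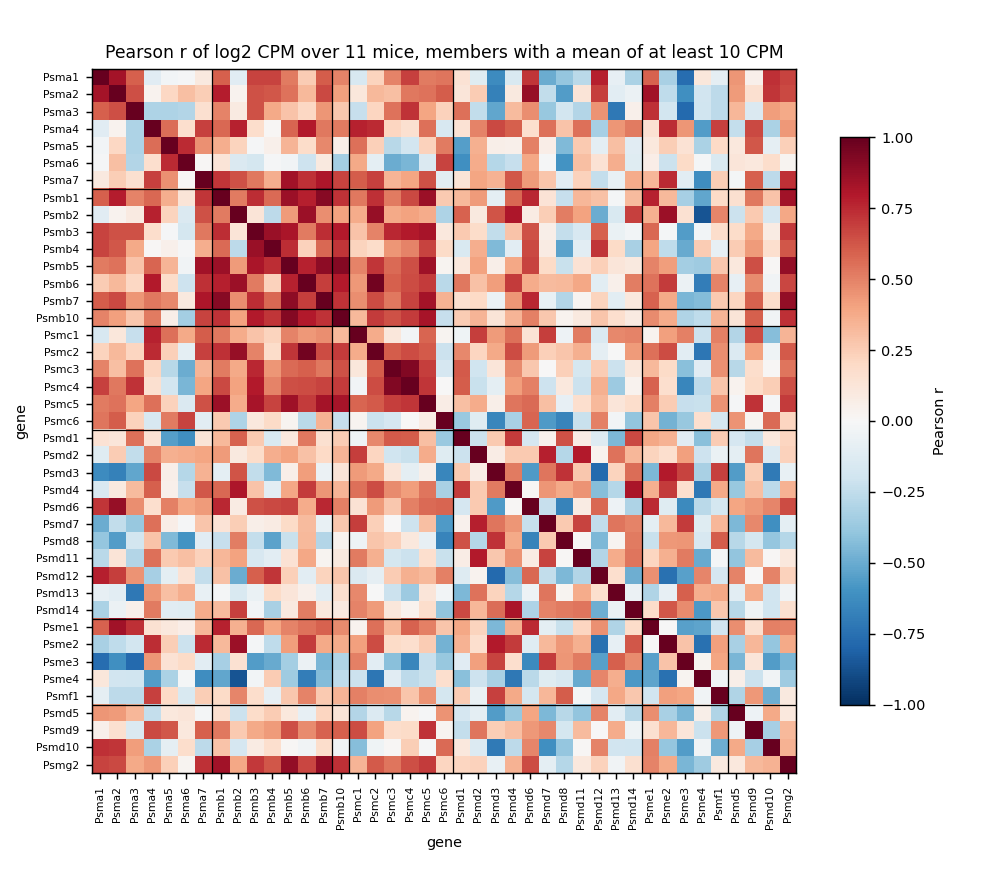
Pearson r between the 41 members with a mean of at least 10 CPM, over 11 mice, from -1 (blue) to 1 (red), with lines between subcomplexes. The beta-ring block is almost all red (mean r = 0.61), Psmb10 beside it is red too, and the row of Psme4 is mostly blue.

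The anxiety groups were compared to ask whether proteasome genes differ with the predicted anxiety state. edgeR's quasi-likelihood test took all groups together, so its p is for any difference among them and not for more minus less alone. No member was called by this test at an adjusted p under 0.05 over all 26963 genes, of which 0.00742% were called. DESeq2 called no member either. At an unadjusted p under 0.05 in edgeR's test over all groups there was 1 member, Psma5, that is 1 of 50 beside 6.35% of all genes. For more minus less alone, the unadjusted p by edgeR was 0.012 for Psma5, 0.0256 for Psmg4 and 0.0459 for Psma6. The other members were above 0.05. Neither an adjusted p nor the share of all genes was computed for more minus less alone. The fitted change from less to more anxious mice was above 0 for 34 members (50.51% of all genes) and below 0 for 16, with a median of 0.0435 (log2), beside 0.00366 for all genes.

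By subcomplex, all 7 beta-ring genes had fitted changes above 0, from 0.0376 (Psmb7) to 0.25 (Psmb4) on the log2 scale, and none of the 7 passed the test. The active-site subunits gave 0.17 ± 0.17 (SE) for Psmb5, 0.10 ± 0.09 for Psmb6 and 0.04 ± 0.12 for Psmb7. The inducible ones gave 0.02 ± 0.21 for Psmb8, -0.23 ± 0.31 for Psmb9 and 0.23 ± 0.13 for Psmb10. The edgeR test over all groups gave an adjusted p of at least 0.904 for each. Psmb10 had 24.1, 22.9 and 20.01 CPM in less anxious mice 3, 7 and 12 and 23.8, 26.3, 28.3 and 24.9 CPM in anxious mice 1, 4, 8 and 11. More anxious mice 2, 6, 9 and 10 had 23.7, 26.5, 31.2 and 24.1 CPM. The groups overlapped narrowly, since mouse 1 (23.83 CPM) and mouse 2 (23.67 CPM) lay below less anxious mouse 3 (24.13 CPM). Psmb6 had 77.5, 83.0 and 71.3 CPM in less anxious mice 3, 7 and 12 and 82.0, 89.2, 87.4 and 80.2 CPM in more anxious mice 2, 6, 9 and 10. Psmb7 had 116.5, 98.6 and 88.0 CPM and 96.6, 113.2, 112.3 and 101.8 CPM in the same mice. Both sets overlapped between the groups.

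Of the alpha ring 3 genes were above 0 and 5 below, of the ATPases 4 and 2, of the base and lid 7 and 4, of the activators 4 and 2 and of the chaperones 5 and 2.

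Psma5, an alpha-ring subunit (chr3:108256926-108279974, + strand), was the member with the smallest p across the groups. Less anxious mice 3, 7 and 12 had 64.0, 61.2 and 61.6 CPM. Anxious mice 1, 4, 8 and 11 had 47.9, 59.3, 65.7 and 50.4 CPM. More anxious mice 2, 6, 9 and 10 had 41.9, 56.7, 53.9 and 47.5 CPM. The less and more anxious mice did not overlap, while the anxious mice spanned both. The fitted difference, more minus less, was -0.36 ± 0.12 (log2, SE). The edgeR test over all groups together gave an adjusted p of 0.757, so Psma5 was not called. With a mouse left out, the difference lay between -0.46 and -0.27. Without mouse 2, 3, 10 or 12 the unadjusted p over all groups was no longer under 0.05. Psma5 overlaps an antisense gene, 1700010K24Rik.

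In all, 2 members had all more anxious mice below all less anxious mice, beside 3.83% of all genes, and 1 had them all above, beside 4.57%. These were Psma5 and Psma6 below and Psmg4 above. Psma6, another alpha-ring subunit, had 77.1, 71.4 and 74.2 CPM in less anxious mice 3, 7 and 12 and 64.0, 66.6, 65.7 and 66.2 CPM in more anxious mice 2, 6, 9 and 10, with an adjusted p of 0.872 by edgeR. Psmg4, an assembly chaperone, had 4.32, 3.24 and 2.40 CPM and 5.44, 4.49, 5.44 and 4.63 CPM in the same mice, with an adjusted p of 0.819. The lower astrocyte and endothelial markers of the more anxious mice and the higher neuron sum, given above, run along with these differences, and their part was not tested. All 4 endothelial markers had fitted changes below 0 (median -0.84), as did all 4 astrocyte markers (median -0.22). The same held for all 4 oligodendrocyte markers (median -0.155) and all 6 microglia markers (median -0.187).

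**Figure D4:**
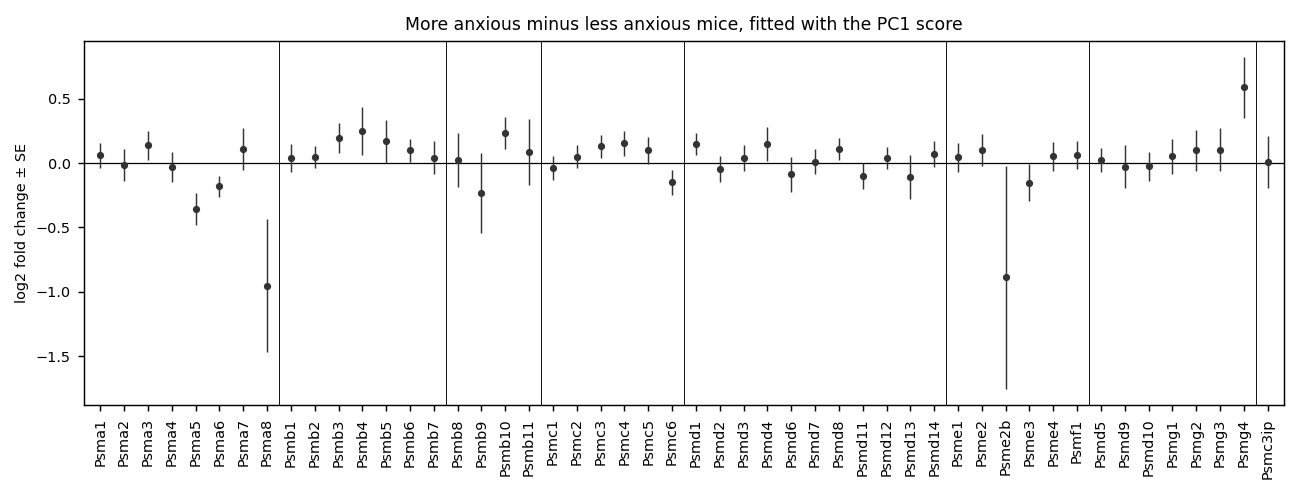
Fitted log2 fold change, more minus less anxious mice, of 50 genes (points, bars are ± SE), with the PC1 score in the model and lines between subcomplexes in the order of the plot of levels. Most points lie within 0.25 of 0, and Psma8 and Psme2b, with few counts, have the widest bars.

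The behavior measures address whether members follow how a mouse behaved, and they did not come from expression. Each of the 7 measures was standardized, so a log2 change is per SD of the measure. No member had an adjusted p under 0.05 by edgeR for any of the 7, in 350 tests. For percent time in the light of the LD 0 members had an unadjusted p under 0.05, beside 3.55% of all genes (0.00742% called), and for percent distance in the light 0, beside 5.8% (0% called). For percent time in open arms of the EPM there was 1, beside 5.84% (0% called), and for total entries 1, beside 6.97% (0% called). DESeq2 called no member for these LD and EPM measures.

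The EPM member was Psma5 in both cases. Its fitted change was 0.15 ± 0.05 (log2 per SD, SE) with total entries (adjusted p = 0.606, edgeR) and 0.14 ± 0.05 with percent open time (adjusted p = 0.749). Mouse 2 had the fewest entries, 6, and the lowest Psma5, 41.9 CPM, while mouse 12 had the most entries, 42, with 61.6 CPM. Without mouse 2 the changes were 0.11 ± 0.07 and 0.10 ± 0.06, and neither had an unadjusted p under 0.05. The group comparison and these measures use the same 11 libraries, so they are not separate evidence on Psma5.

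The measure of the SIT was the box:zone ratio, which compares time in direct (box) with distant (zone) contact with a stranger mouse. Over 3 min, for which 10 mice had a value, 6 members had an unadjusted p under 0.05, that is 6 of 50 beside 7.54% of all genes (0.0148% called). These were Psmb4, Psmb3, Psmb5, Psma2 and Psmd12 with positive changes and Psme3 with a negative change. Over 5 min there were 5 (Psmb4, Psma2, Psmd6, Psmb3, Psmb1), beside 6.56% (0.0111% called), and over 10 min 4 (Psma2, Psmb4, Psmd6, Psmc6), beside 8.05% (0.0223% called). The fitted changes were above 0 for 36, 41 and 39 of the 50 members over 3, 5 and 10 min, with medians of 0.0401, 0.051 and 0.0344 on the log2 scale. Over all genes 49.55%, 47.77% and 46.69% were above 0, with medians of -0.0011, -0.0061 and -0.0092. The beta ring had 6 of 7 above 0 at each time, with Psmb2 the exception. The 3 ratios come from overlapping time in 1 test, and the count over 10 min was close to the background share. Without mice 3 and 9 together the counts were 2, 2 and 1, beside 4.27%, 2.61% and 2.73% of all genes. With a single mouse left out they ran from 3 to 7, from 3 to 9 and from 1 to 6, where the 1 was without mouse 3, beside 6.28% to 8.18%, 3.47% to 9.42% and 2.89% to 10.1% of all genes. With the PC1 score as a covariate the counts were 14, 10 and 5, beside 8.49%, 5.62% and 5.81% of all genes.

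Psmb4 (chr3:94884093-94886961, - strand) had the smallest p of all members. In less anxious mice 3, 7 and 12 it had 115.5, 69.5 and 67.0 CPM, in anxious mice 1, 4, 8 and 11 80.7, 85.5, 87.1 and 89.0 CPM, and in more anxious mice 2, 6, 9 and 10 79.1, 80.0, 135.2 and 84.7 CPM. Mice 9 and 3 stood above all others, and they come from opposite groups. Their 3-min ratios were 1.84 and 1.7, the highest of the 10 mice. Mouse 10 had the next ratio, 1.45, with Psmb4 within the range of the other mice, and mouse 7 had the lowest ratio, 0.236.

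The fitted change of Psmb4 was 0.28 ± 0.05 (log2 per SD of the 3-min ratio, SE), with an adjusted p of 0.0771 by edgeR, which is not past the threshold. DESeq2's likelihood ratio test called it (adjusted p = 7.48e-05) together with Psmb3 (adjusted p = 0.038), out of 164 genes it called. Without mouse 10 the adjusted p by edgeR was 0.025, and with each other mouse left out it lay between 0.098 and 0.274. Without mice 3 and 9 together, a choice made after seeing the values, the change was 0.16 ± 0.06 with an adjusted p of 0.999. With 5 min the change was 0.21 ± 0.06 (adjusted p = 0.567, edgeR) and with 10 min 0.18 ± 0.07 (adjusted p = 0.547). Across the anxiety groups, more minus less, the change was 0.25 ± 0.19, and the edgeR test over all groups gave an adjusted p of 0.952.

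Psmb3, the beta-ring partner closest to Psmb4 in its pattern, had a fitted change of 0.14 ± 0.04 with the 3-min ratio (adjusted p = 0.391, edgeR). It had 58.6 CPM in mouse 3 and 65.3 CPM in mouse 9, and 45.7 to 59.3 CPM in the others. Psmd12, a lid subunit, had 0.09 ± 0.04 (adjusted p = 0.624). Psma2, an alpha-ring subunit, had 0.13 ± 0.04 with the 5-min ratio (adjusted p = 0.567) and 0.12 ± 0.04 with the 10-min ratio (adjusted p = 0.427). Psmd6, also of the lid, had 0.12 ± 0.04 and 0.11 ± 0.04 (adjusted p = 0.631 and adjusted p = 0.555). Both were highest in mouse 3, Psma2 with 93.8 CPM and Psmd6 with 76.7 CPM, and mouse 3 also had the highest ratios over 5 and 10 min (2.12 and 2.62).

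Of the active-site subunits, Psmb5 had a fitted change of 0.14 ± 0.06 with the 3-min ratio (adjusted p = 0.64, edgeR), Psmb7 of 0.09 ± 0.05 and Psmb6 of 0.02 ± 0.05. Of the inducible ones, Psmb10 had 0.10 ± 0.05, Psmb8 0.09 ± 0.09 and Psmb9 0.08 ± 0.15. Apart from Psmb5, none of these had an unadjusted p under 0.05.

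**Figure D5:**
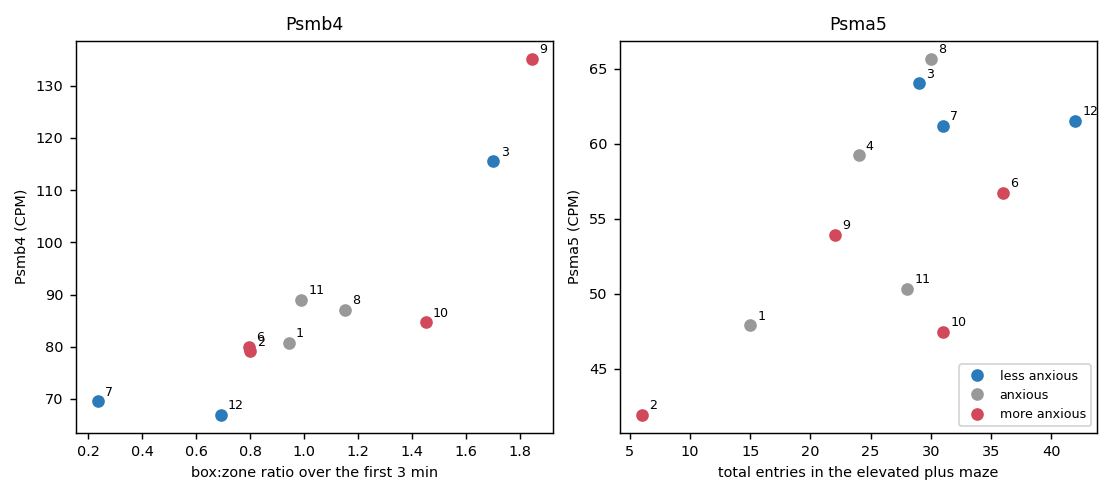
Left, Psmb4 (CPM) against the box:zone ratio over the first 3 min in 10 mice. Right, Psma5 (CPM) against total EPM entries in 11 mice. Numbers name mice and colors give groups. Mice 3 and 9 stand apart on the left, and mouse 2 lies at the lower left on the right.

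A further 22 genes outside the symbol rule belong to or work with the proteasome. Among them are the subunits Adrm1 and Sem1, ubiquitin genes, shuttle factors, deubiquitinases, the assembly factor Pomp, and Nfe2l1 with its protease Ddi2. None of the 22 was called in any of the 8 comparisons by edgeR. With the 3-min ratio 5 of the 22 had a positive and 2 a negative change at an unadjusted p under 0.05, beside 7.54% of all genes. The positive ones were Akirin2, which helps bring proteasomes into the nucleus (0.13 ± 0.04), Ubb, a polyubiquitin gene (0.17 ± 0.05), Pomp (0.15 ± 0.05), Ubqln2 (0.10 ± 0.04) and Rps27a (0.22 ± 0.09). The negative ones were Nfe2l1 (-0.09 ± 0.04) and Ddi2 (-0.08 ± 0.04), with adjusted p of at least 0.395 for all 7. With open time, Pomp (-0.13 ± 0.05), Akirin2 (-0.09 ± 0.04) and Ubb (-0.12 ± 0.06) had negative changes, with adjusted p of at least 0.752. These were 3 of the 22 at an unadjusted p under 0.05, beside 5.84% of all genes. In the other comparisons none of the 22 had an unadjusted p under 0.05. Of 10 antigen presentation genes, which share interferon control with Psmb8 and Psmb9, none was called by edgeR. At an unadjusted p under 0.05 there was 1 across the groups, Nlrc5, beside 6.35% of all genes. With open time there was 1, Tapbp (0.15 ± 0.06, adjusted p = 0.754, edgeR), beside 5.84%. With the 10-min ratio there was 1, H2-D1 (0.21 ± 0.08, adjusted p = 0.515, edgeR), beside 8.05%. The other comparisons had none. Nlrc5, an activator of class I genes, had a fitted change of 0.96 ± 0.43 (log2, more minus less), at a mean of 0.962 CPM. Its adjusted p by edgeR over all groups was 0.532.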

How the data were processed

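The authors trimmed single-end 75 bp reads of stranded mRNA libraries from 1 sequencing run, checked them with STAR on mm10, and deposited estimated counts per gene from Salmon and tximport, which are whole numbers without normalization. Tool versions, annotation release and strand setting are not given in the sources used here. Groups and behavior measures came from the labels, and mouse 5, without a group, was left out of the tests. Genes were matched to GENCODE M21 (47310 of 47729, 99.1%).

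Genes with at least 10 counts over 11 mice were tested with edgeR 4.0.16 (TMM, robust quasi-likelihood F-test, Benjamini-Hochberg over 26963 genes), with the PC1 score as a covariate for the groups and none for each behavior measure. DESeq2 1.42.0, other size factors, filters and covariates and each mouse left out were alternatives. The steps were tested on simulated data. The levels were planned per median length of protein-coding transcripts, which counts partial transcripts, so the APPRIS principal transcript was used after seeing the data. Members and lists were chosen with earlier results of these data known. Named members were the catalytic subunits, the ends of each subcomplex per length and up to 3 members with the smallest unadjusted p per comparison. Psma6, the members of extreme pairs and the SIT members beyond these 3 were named after their values were seen.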

Additional observations from a re-analysis of the deposited data

Results flagged for a closer look

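In each of the anxious and more anxious groups, every member was checked for a mouse whose gap to the nearest other, divided by the range of the 4 mice, exceeded Dixon's critical value for 4 values. Of 100 checks 9 exceeded it, and chance gives about 5. Among the anxious mice, Psma3 was low in mouse 11 (51.9 CPM against 59.5 to 60.8), Psma4 was high in mouse 8 (107 CPM against 76.8 to 79.5), Psmb6 was high in mouse 8 (99.9 CPM against 80.4 to 83.7), Psmd2 was low in mouse 4 (134 CPM against 159 to 161) and Psma8 was high in mouse 1 (0.229 CPM against 0.104 to 0.121). Among the more anxious mice, Psmb4 was high in mouse 9 (135 CPM against 79.1 to 84.7), Psma3 was high in mouse 2 (68.3 CPM against 58.9 to 59.8), Psmd5 was high in mouse 6 (47.7 CPM against 44.8 to 45.2) and Psma8 was high in mouse 9 (0.319 CPM against 0.0899 to 0.112).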

How the results depend on the processing

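For the 3-min box:zone ratio, edgeR called 0 members, DESeq2 called 2, edgeR without a count filter 1, and leaving out a mouse 0 to 1. The other 7 counts of called members were 0 under every alternative run. The median level was 54.0 CPM per kb as planned, 20.4 with merged exons and 36.6 with the principal transcript, added after seeing the data. The mean pairwise r of the 50 members was 0.145, and 0.101 to 0.166 with a mouse left out. The group change of Psmb8 turned from 0.02 to -0.011 without the PC1 covariate and to -0.051 without mice 3 and 9 together, and to -0.0666 to 0.103 with a mouse left out. That of Psmb7 was -0.0453 to 0.205 and that of Psmb9 -0.426 to 0.342 with a mouse left out. Members at an unadjusted p under 0.05 across the groups numbered 1 (6.35% of all genes), 0 without the PC1 covariate (5.97%), 3 with ordered groups (9.18%), 7 without mice 3 and 9 together (6.22%) and 0 to 2 with a mouse left out (4.51% to 7.93%). For open time and total entries the 1 member ranged from 0 to 3, and for the 5-min ratio 5 (6.56% of all genes) became 10 with DESeq2 (6.68%). Over all genes, DESeq2 called 209 across the groups where edgeR called 2. The causes were not tested. No paired analysis was possible because the replicate numbers only name mice. Depth limits Psma8, Psme2b, Psmb11, Psmb8 and Psmb9 most.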
